A study of Mus musculus with 10 samples.

Results

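Granulocyte-macrophage progenitors (GMPs) were profiled by bulk RNA-seq in 5 wild-type (WT) samples, replicates 1 to 5, out of the 10 samples of the series. These 5 were chosen by their label as WT GMPs, and each came from the bone marrow of 1 male mouse without pooling. The donor cells were ROSA26 CreER+/-, with a tamoxifen-inducible Cre recombinase expressed constitutively from the ROSA26 locus, on a C57Bl6/N background, and the mice had received tamoxifen chow for 2 wk before the marrow was taken. These cells had thus been exposed to Cre and to tamoxifen, and no age is given in the labels. In the study's methods, the marrow was that of chimeras in which CD45.2+ donor cells and CD45.1+ cells had been transplanted together into irradiated recipients. CD27+ cells were enriched on beads, and CD45.2+ GMPs were then sorted into lysis buffer.

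GMPs sit between the multipotent progenitors of the marrow and its mature phagocytes, and they divide while they commit to the neutrophil or the monocyte fate. Their most specialised product at this stage is the primary (azurophil) granule, which is loaded with myeloperoxidase and with serine proteases that are stored for later use by neutrophils. Secondary and tertiary granule proteins are made by later cells of the neutrophil line, so that the granule genes mark successive stages of granulocyte maturation.

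Levels are given in TPM, a measure of transcripts that is corrected for their length and sums to 1000000 in every sample, added up over the transcripts of each gene. Samples held 14133706 to 19745405 estimated reads, with replicate 4 the shallowest and replicate 1 the deepest, and 10073 to 10530 genes reached 1 TPM in each. In all 5 samples, 9213 genes reached 1 TPM, of which 8624 code for proteins. A mean of at least 10 TPM was reached by 4839 genes, a mean of at least 100 by 1243 genes and a mean of at least 1000 by 191 genes, and these 191 held 54.4% of all TPM. The 137 to 170 most abundant genes of a sample, depending on the sample, were enough to make up 50% of its TPM (152 ± 15.4, SD, n = 5). Replicates 1 and 5 needed 170 and 166 genes to reach that share, whereas replicates 2, 3 and 4 needed 149, 138 and 137.

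**Figure D1:**
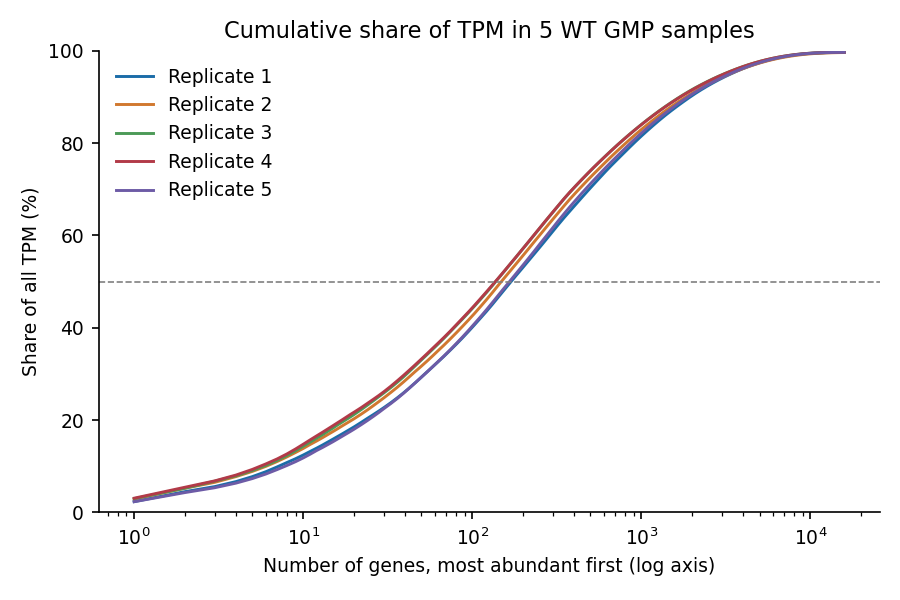
Cumulative share of TPM (vertical axis, %) against the number of genes, ranked by abundance within each sample (horizontal axis, log scale), with 1 line per WT GMP sample and a dashed line at 50%. The 10 most abundant genes held 11.8% to 14.8% of TPM and the 100 most abundant held 40.1% to 44.3%, with replicates 3 and 4 highest and replicates 1 and 5 lowest.

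The granule genes named for the identity of these cells were at the top of the whole transcriptome. Elane, which encodes neutrophil elastase, ranked 1 of 51717 genes, with 23422, 28906, 29850, 30839 and 23244 TPM in replicates 1 to 5 (27252 ± 3643, SD, n = 5). Mpo, which encodes myeloperoxidase, ranked 2, with 21611, 23645, 22626, 23763 and 19851 TPM (22299 ± 1622). Ctsg, which encodes cathepsin G, ranked 3, with 10914, 12369, 11477, 13777 and 10485 TPM (11804 ± 1309). The order Elane, Mpo, Ctsg held within each of the 5 samples, and each of the 3 was highest in replicate 4 and lowest in replicate 5.

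Prtn3, which encodes proteinase 3, ranked 10, with 8219, 8707, 8571, 12228 and 8201 TPM (9185 ± 1715). Its other 4 samples lay within a narrow band and replicate 4 stood above them, so that its CV, the SD as a share of the mean, was 18.7% against 7.28% for Mpo. Together, the 4 genes made up 7.05% ± 0.762 of TPM and 10.02% ± 1.01 of estimated reads. Mpo overtook Elane when reads were counted without correction for length, since its mean effective length was 2047 bases against 674 for Elane, and it drew 2.50 times as many reads.

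The other markers given for GMPs were far lower. Cebpa encodes a transcription factor that progenitors require to enter the granulocyte line, and it had 4.70, 4.47, 4.88, 4.62 and 4.35 TPM (4.60 ± 0.204, rank 6651, 234 reads on average). Kit encodes the receptor for stem cell factor and had 7.15, 7.96, 5.77, 5.48 and 6.62 TPM (6.60 ± 1.01, rank 5776, 653 reads). Both were detected in all 5 samples, with CVs of 4.44% and 15.3%, so that all 6 label markers were present. Of these, 4 were among the 10 most abundant genes, and Kit and Cebpa were 4132 and 5918 times below Elane in mean TPM. In reads, which are not divided by length, the gap was also wide, with 410647 on average for Elane.

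The steep drop has to be read beside transcript length. Among protein-coding genes with a mean of at least 1 TPM, the median TPM was 127 for the 619 genes with an effective length under 500 bases and 2.47 for the 628 genes of 4000 bases or more. In CPM, reads scaled to the depth of the sample and not divided by length, the same medians were 61.0 and 16.1. Of the genes at 1000 TPM or more in this set, 101 were under 500 bases, and none was 4000 bases or longer. The cause of this gradient was not tested, and levels of genes of very different length are therefore given below with their reads where it matters.

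The 20 most abundant genes held 19.95% ± 1.63 of TPM, and beyond the 4 granule genes they fell into a few groups. Plac8, a small cysteine-rich protein of myeloid cells, had 10823, 11190, 10695, 10854 and 9680 TPM. Gpx1, a glutathione peroxidase that detoxifies hydrogen peroxide, had 10412, 10552, 11065, 10742 and 9747 TPM. Both varied by little, with CVs of 5.37% and 4.65%, and both were lowest in replicate 5.

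The actin system was represented by Actb (8758 ± 1542 TPM), the cytoskeletal actin, and Tmsb4x (9195 ± 1024), which sequesters actin monomers. Actb ranged from 6670 in replicate 2 to 10326 in replicate 4, a ratio of 1.55 that among the 20 genes was exceeded only by that of Hist1h2ap. Ftl1, the light chain of the iron store ferritin, had 6985 ± 753 TPM, and Mif, a cytokine with tautomerase activity, had 5678 ± 346. Gapdh of glycolysis (5522 ± 356), Ubb, which encodes polyubiquitin (5333 ± 538), and the ribosomal protein gene Rpl13 (5068 ± 192) also belonged here. Gapdh has 68 near-identical copies in the genome, which held 81.8 TPM in all.

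A further 6 of the top 20 come with limits on the measurement itself. Hist1h2ap, a replication-dependent histone H2A gene, had 9544, 12730, 15259, 12551 and 8269 TPM (11671 ± 2778), and 12 other transcribed copies at 95% identity or more mean that its reads could be divided in more than 1 way. Ppia, the peptidyl-prolyl isomerase cyclophilin A, had 10602 ± 422 TPM and Gm10123, an annotated pseudogene, 6955 ± 338, and each is among the near-identical copies of the other. mt-Atp8, a subunit of ATP synthase, ranked 5 with 10672 ± 970 TPM, but its transcript has an effective length of only 24.3 bases and it drew 5823 reads on average, which placed it at rank 492 by reads. mt-Co3 (8217 ± 771 TPM) and mt-Atp6 (6617 ± 571), which code for subunits of cytochrome oxidase and ATP synthase, have near-identical nuclear copies at 62.9 and 175 TPM.

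**Figure D2:**
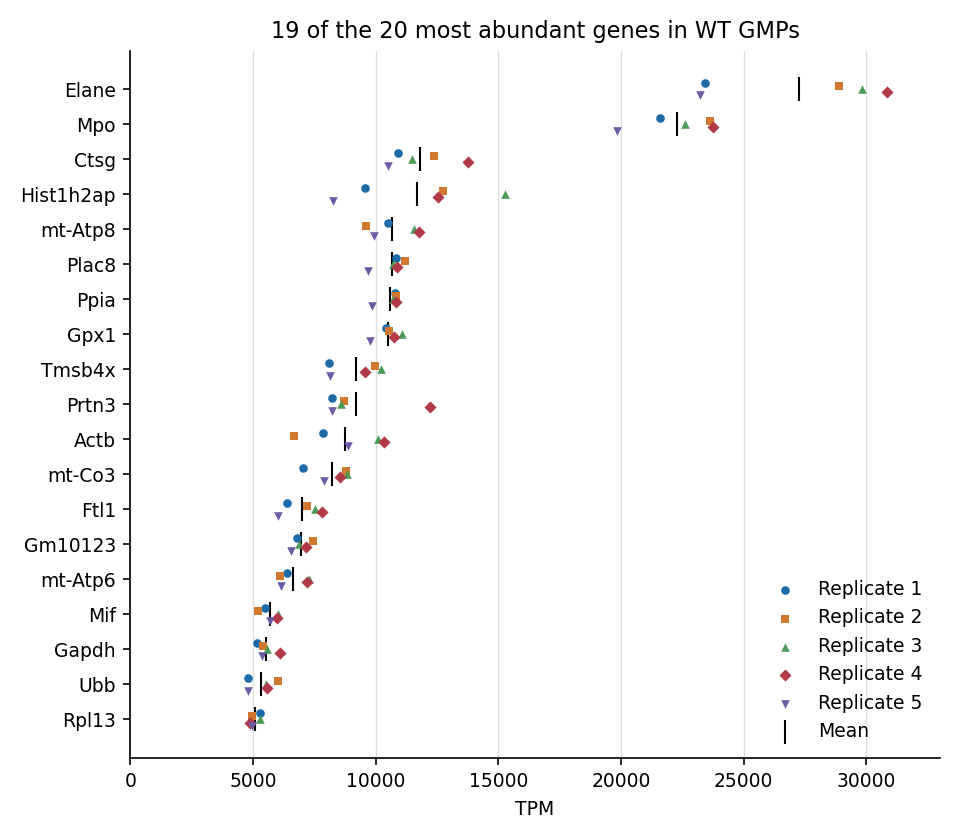
TPM (horizontal axis) of 19 of the 20 genes with the highest mean over the 5 WT GMP samples, with 1 symbol per replicate and a vertical tick at the mean. Elane and Mpo stand apart from the rest, Prtn3 is drawn out by replicate 4 at 12228 TPM, and Hist1h2ap runs from 8269 to 15259 TPM.

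By families of genes, the 83 cytosolic ribosomal protein genes took 15.4% ± 0.369 of TPM, more than the primary granule genes described next, and 81 of them had a mean of at least 1 TPM. By reads this order was reversed, at 7.38% ± 0.325 for the ribosomal protein genes against 10.02% for the 4 leading granule genes alone. The 13 protein-coding genes of the mitochondrial genome took 3.45% ± 0.228 of TPM and 1.56% ± 0.139 of reads, and the 75 histone genes 2.14% ± 0.285. Protein-coding genes made up 94.7% of TPM, pseudogenes 3.67%, and long noncoding RNAs of the lincRNA and antisense classes 0.968%.

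The primary granule list of 17 genes summed to 82802 ± 8864 TPM, or 8.28% of the transcriptome, and ranged from 72611 in replicate 5 to 94667 in replicate 4. Behind the 4 leading genes came Nkg7 (3658 ± 396 TPM), a granule membrane protein, and Ms4a3 (3236 ± 466), a membrane protein characteristic of GMPs and their progeny. Srgn, which encodes serglycin, the proteoglycan on which granule proteases are packed, had 2144, 2624, 2342, 3164 and 2137 TPM. As with Prtn3, its highest value was that of replicate 4.

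Genes that act on the proteases were lower. Ctsc encodes the dipeptidase that activates the granule serine proteases, and it had 32.1, 32.6, 26.9, 38.3 and 33.4 TPM. The protease inhibitor genes were above it, with Cst7, a cystatin, at 587 ± 64.0 TPM and Serpinb1a, an inhibitor of elastase, at 495 ± 32.0. Prss57, a further serine protease of azurophil granules, had 213 ± 9.55 TPM.

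Among the enzymes that granules share with lysosomes, Lyz2 (lysozyme) had 363 ± 48.5 TPM, Hexa 119.6 ± 8.14 and Gusb 82.5 ± 5.59, and the lysosomal membrane protein gene Cd63 had 979 ± 127. Bpi, which encodes a bactericidal protein of human azurophil granules, was the exception, with 1 read on average and no more than 0.0745 TPM in any sample. The other 16 genes had means above 1 TPM, and every neighbour in the order of the 17 means stood in the same order in all 5 samples.

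The start regions of the leading serine protease genes are shown because these are the most abundant messages of the cell and sit in known clusters. Elane lies at chr10:79886247-79888215 on the plus strand of GRCm38, 3.07 kb downstream of Prtn3 at chr10:79874476-79883174, and Ctsg lies at chr14:56099881-56102574 on the minus strand. The 3 sequences are from RefSeq on GRCm38.p6 and run 5′ to 3′ from 250 bases before the annotated start to 20 bases after it, at chr10:79886062-79886331, chr10:79879417-79879686 and chr14:56102555-56102824. Capitals mark GAGGAAG, the letters of a site of the kind that the ETS factor PU.1 binds. They also mark AACGG, the letters of a site for the factor MYB, and further downstream TATAAG, which resembles the box found near many start sites. In Ctsg they mark ACCACA, which is how a RUNX site is spelled on the opposite strand. These letters were picked with the sequences in view.
Elane: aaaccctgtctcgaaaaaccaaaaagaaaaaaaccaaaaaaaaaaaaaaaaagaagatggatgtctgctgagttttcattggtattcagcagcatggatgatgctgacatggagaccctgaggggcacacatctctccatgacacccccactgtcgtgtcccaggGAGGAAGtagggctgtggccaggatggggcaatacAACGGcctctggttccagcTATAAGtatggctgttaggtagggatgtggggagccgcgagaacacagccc
Prtn3: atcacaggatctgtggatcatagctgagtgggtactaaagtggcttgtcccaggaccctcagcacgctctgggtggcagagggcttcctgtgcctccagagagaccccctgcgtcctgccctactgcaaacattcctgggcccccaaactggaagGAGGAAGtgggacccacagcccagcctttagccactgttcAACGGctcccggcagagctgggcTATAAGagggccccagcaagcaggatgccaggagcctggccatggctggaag
Ctsg: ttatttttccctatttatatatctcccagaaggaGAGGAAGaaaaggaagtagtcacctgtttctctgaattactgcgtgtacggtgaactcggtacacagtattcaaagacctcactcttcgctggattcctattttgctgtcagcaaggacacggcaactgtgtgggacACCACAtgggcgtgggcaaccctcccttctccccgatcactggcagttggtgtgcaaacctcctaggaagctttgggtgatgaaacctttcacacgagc

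Elane and Prtn3 carried the same 3 motifs in the same order and at close to the same distances. In Elane, GAGGAAG began 85 bases, AACGG 50 bases and TATAAG 31 bases before the annotated start, and in Prtn3 they began 95, 55 and 32 bases before it. Ctsg carried GAGGAAG 216 bases and ACCACA 79 bases before its start, and neither AACGG nor TATAAG was found in its window. RefSeq promoters matched 14 of the 17 primary granule genes. Over the 300 bases from 250 before to 50 after the start, on both strands, GAGGAAG was found in 8 of these 14 against 13.6% of 32817 promoters. The RUNX letters TGTGGT were found in 7 of them against 16.8% of all, and the MYB letters in 3 against 17.4%. The box-like TATAAG was in 2 against 7.44%, and a site for the C/EBP factors, spelled TTGCNNAA, in 2 against 10.8%. The 3 printed promoters, with which in view the letters were picked, are among the 14, and the 2 with TATAAG are Elane and Prtn3. The counts can therefore not be read as an excess over all promoters. A match describes the letters and is not evidence of a bound site. The annotated starts lay 65, 53 and 0 bases from the start of the leading transcript of Elane, Prtn3 and Ctsg. Prtn3 has 6 annotated transcripts, of which the leading one held 50.3% of its TPM. The Prtn3 window lies inside the span of the gene and describes the start of that transcript only. Among the other promoters counted, the starts lay furthest away for Mpo (425 bases), Cd63 (354) and Bpi (147), all of which carried GAGGAAG.

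Several genes beside the leading ones were near 0. Cfd, the complement factor D gene 2.64 kb from Elane, had 0.931 ± 0.323 TPM, although Prss57, 95.3 kb away in the same cluster, had 213. Lpo, the lactoperoxidase gene 2.02 kb from Mpo, had 0.157 ± 0.0930 TPM. Around Ctsg lie mast cell protease and granzyme genes, of which Mcpt8 at 14.6 kb had 189 ± 31.5 TPM, while Mcpt4, Gzmd, Gzmg, Gzmn, Gzmf and Gzmc had no read in any sample. No read in a sample allows up to 3 reads there, which is 0.152 to 0.212 CPM.

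The 19 genes of secondary and later granules summed to 1739.6 ± 459.9 TPM, below the primary granule list in every sample, with a range from 1140.2 in replicate 1 to 2202 in replicate 2. Of these genes, 12 had a mean of at least 1 TPM. The list was led by S100a8, an alarmin subunit of neutrophil cytosol, with 279.7, 1033, 994, 1028 and 467 TPM. Its partner S100a9 had 115, 314, 247, 171 and 198 TPM. Both were lowest in replicate 1 and highest in replicate 2, with ratios of the highest to the lowest sample of 3.69 and 2.72.

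Secondary granule genes proper were split. Pglyrp1, a peptidoglycan recognition protein, had 573 ± 37.2 TPM and Lcn2, the iron-sequestering lipocalin, had 118, 104, 85.6, 208 and 103 TPM. Ngp (18.1 ± 8.36), Camp, which encodes the cathelicidin peptide (12.2 ± 7.81), Fcnb (10.7 ± 5.34) and Chil3 (8.70 ± 3.90) were low and varied by 44.8% to 64.2%. Ltf, which encodes lactoferrin, the classic secondary granule protein, had 0.958, 3.01, 1.49, 0.832 and 0.816 TPM, and the gelatinases and late neutrophil genes Mmp8 (0.587), Mmp9 (0.124), Mmp25 (0.00284) and Ly6g (0.486) had means under 1 TPM. Replicate 2 was the highest sample for 8 of the 12 list members above 1 TPM, beside 19.1% of all genes with such a mean.

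The phagocyte oxidase, the membrane enzyme that makes superoxide, was present with all 6 genes at 1481 ± 85.4 TPM in sum. Its subunits were uneven. Cyba, the small membrane subunit, had 975 ± 80.1 TPM, whereas Cybb, the large catalytic subunit, had 4.32, 5.01, 5.61, 10.6 and 6.37 TPM, a ratio of 153 between the means. The cytosolic subunit genes Rac2 (294 ± 10.04), Ncf4 (113 ± 5.90) and Ncf1 (39.9 ± 2.47) lay in between. Cybb is also a longer transcript, and 464 reads were assigned to it against 9464 to Cyba.

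Antigens expected on sorted GMPs were detected in every sample. Fcgr3 and Fcgr2b, which encode the CD16 and CD32 Fc receptors, had 294 ± 29.6 and 65.8 ± 5.00 TPM. Cd34 had 108, 73.9, 75.1, 53.2 and 95.04 TPM, and Cd27, the antigen of the bead enrichment, had 73.2, 50.6, 42.2, 43.1 and 69.4 TPM. Both were highest in replicate 1 and next in replicate 5. The lowest of the 6 expected antigens were Ptprc, which encodes CD45, at 9.25 ± 1.56 TPM and Kit at 6.60 ± 1.01. Of 11 antigens by which other cells are usually gated out, 8 had means under 1 TPM, among them Cd3e (0.0644) and Cd4 (0.00600). Ly6a, the Sca-1 antigen of stem cells, was the highest of the 11 with 13.1 ± 2.39. Ly6a was above Ptprc, and Ptprc above Kit, in all 5 samples. By reads Ly6a was below both, with 156 on average against 796 for Ptprc and 653 for Kit. The length gradient described above therefore limits this order. GMPs are usually gated as c-kit+ Sca1- FcgR+ CD34+ cells, and the antigens of such a gate are selected as surface proteins. The study shows its marrow gating in a supplementary figure and describes it as the general strategy of the article. The antigens that defined GMPs in the sort for RNA are not listed in its text. Fewer cells of a type cannot be told apart from less RNA per cell in bulk samples.

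Transcription factors of myeloid cells were led by Spi1, which encodes PU.1, with 198, 203, 213, 222 and 194 TPM (206 ± 11.6). Of the 30 factors listed, 22 had at least 1 TPM in all 5 samples. In the C/EBP family, Cebpb, the factor of emergency granulopoiesis, had 38.9, 43.5, 43.3, 68.0 and 38.5 TPM, and Cebpe, which drives secondary granule genes, had 40.1, 48.1, 40.9, 35.3 and 35.2. Cebpa, at 4.60, was the lowest of the 6 listed genes with a Cebp symbol, which do not all need to be C/EBP factors. It was below Cebpz (30.2), Cebpg (12.8) and Cebpd (10.2), and Spi1 stood 44.7 times above it. Replicate 4 was set apart for Cebpb, as it was for Prtn3, and not for Cebpe.

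Factors that steer toward the neutrophil and toward the monocyte fate were present side by side. Gfi1, a repressor needed for neutrophils, had 30.7, 29.7, 25.2, 32.7 and 26.3 TPM, and Irf8, needed for monocytes and dendritic cells, had 59.5, 43.5, 51.5, 35.9 and 52.5. Irf8 was above Gfi1 in each sample, by the least in replicate 4, where Gfi1 was at its highest and Irf8 at its lowest. Klf4 (0.298 ± 0.163 TPM), Egr2 (0.0949 ± 0.0653) and Nr4a1 (0.132 ± 0.0634), which act in later monocytes and macrophages, were near 0. Myc (108 ± 5.44), Myb (43.9 ± 2.66), Hoxa9 (14.8 ± 2.24), Runx1 (8.44 ± 1.29) and its partner Cbfb (17.1 ± 1.55), which act in cycling progenitors, were all detected with CVs of 5.03% to 15.3%.

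Of the 22 cytokine and chemokine receptor genes, 15 had at least 1 TPM in all 5 samples. The GM-CSF receptor chain Csf2ra had 49.2 ± 4.44 TPM and its common beta chain Csf2rb 8.22 ± 1.31. Csf3r, the G-CSF receptor, had 19.3, 20.3, 15.8, 22.04 and 18.9 TPM, and Csf1r, the M-CSF receptor, had 6.45, 4.01, 4.33, 5.07 and 4.44, so that Csf3r was above Csf1r in every sample. The order Csf2ra, Csf3r, Csf2rb, Csf1r held within all 5 samples. In that order their leading transcripts had 1849, 3160, 4764 and 4701 bases, so the length gradient described above limits this ranking.

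Ifngr1, a chain of the interferon gamma receptor, led the list at 152 ± 10.8 TPM, and the tumor necrosis factor receptor gene Tnfrsf1a had 32.3 ± 3.06. Ccr2, which draws monocytes out of the marrow, had 26.1, 25.6, 18.2, 27.4 and 29.0 TPM, and Cxcr4, which retains cells in the marrow, had 8.07 ± 1.36, above Cxcr2 (2.72 ± 0.513), which draws neutrophils out. Among receptors of other lineages, Flt3 had 2.82 ± 0.624 TPM, and means under 1 TPM were found for Epor at 0.301 ± 0.256, Il5ra at 0.0570 ± 0.0455 and Il7r at 0.0229 ± 0.0177.

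**Figure D3:**
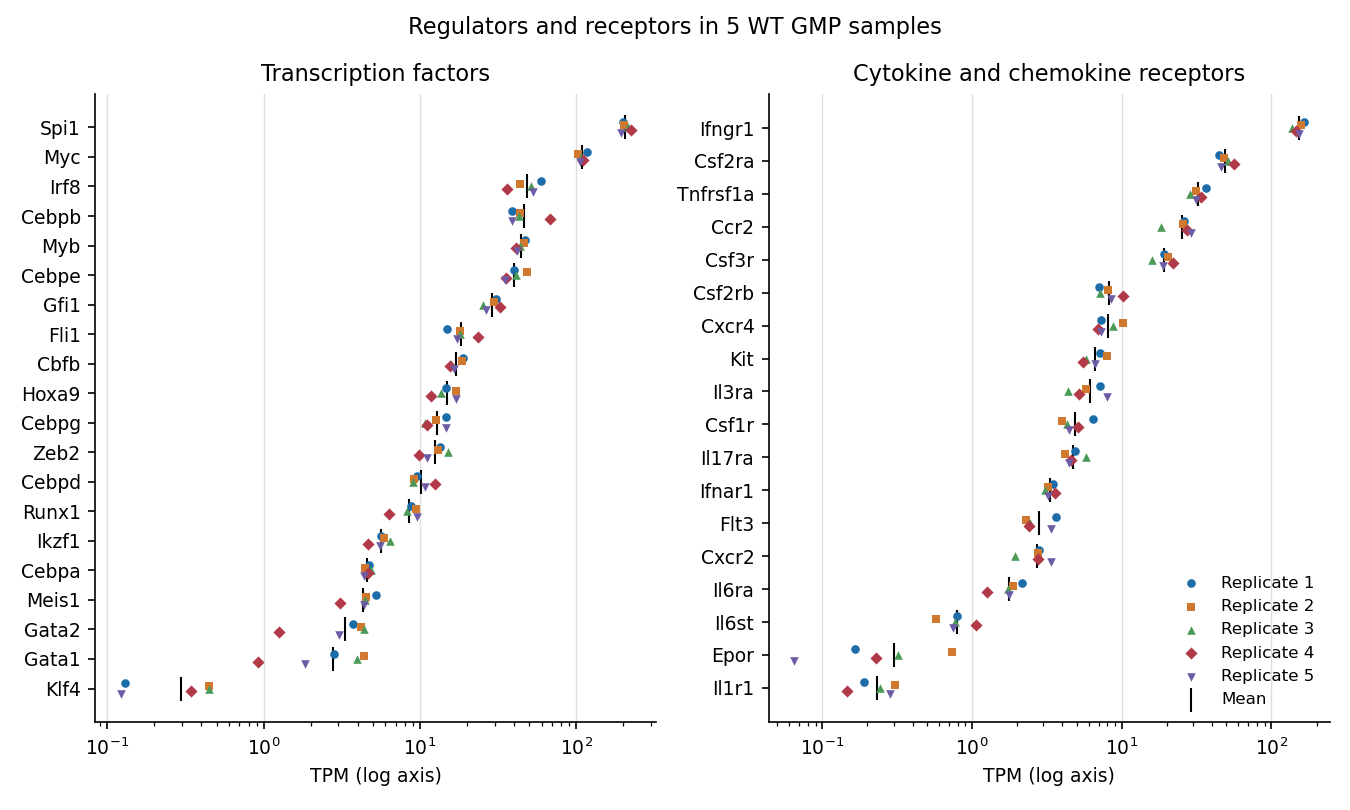
TPM (horizontal axes, log scale) of 20 transcription factors, left, and 18 cytokine and chemokine receptors, right, in the 5 WT GMP samples, ordered by mean, with 1 symbol per replicate and a vertical tick at the mean. Spi1 and Ifngr1 lead at 206 and 152 TPM with tight symbols, replicate 4 is lowest for Irf8, Meis1, Gata2 and Gata1 and highest for Cebpb, and the symbols spread widely below 1 TPM.

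Monocyte genes summed to 4941 ± 533 TPM, but this sum was mostly Ly6c2, the surface antigen of inflammatory monocytes, with 3553, 4873, 4924, 4768 and 4588 TPM. Replicate 1 lay below the other 4 for Ly6c2 and so for the list. Ms4a6c (163 ± 27.6 TPM), F13a1 (68.3 ± 5.38), Ly86 (52.1 ± 13.1) and Ctss (16.6 ± 3.67) followed, and Cd14 had 5.49, 6.61, 4.56, 11.8 and 5.54 TPM. Of the 15 genes, 11 had means of at least 1 TPM, and Cx3cr1, a receptor of patrolling monocytes, was at 1.32 ± 0.375.

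Marker lists of other cell types were low in sum beside the primary granule list. The 13 marrow macrophage genes summed to 12.996 to 28.26 TPM, with 6 at means of at least 1, led by the complement genes C1qb (2.88, 3.25, 3.07, 3.50 and 6.76) and C1qc (1.90, 2.42, 1.78, 3.60 and 5.16). Replicate 5 was the highest sample for 4 of these 6, beside 22.5% of all genes. The 13 dendritic cell genes summed to 265 to 391 TPM, which was mostly Bst2 (260.3 ± 43.5). Of the 13, 6 had means of at least 1 TPM, among them Tcf4 and Id2, whose means lay between those of H2-Ab1 and Cd74. Xcr1 (0.155), Siglech (0.0471), Zbtb46 (0.0212), Batf3 (0.0170), Clec9a (0.0160) and Itgax (0.0159) had means near 0. Cd74, the invariant chain, had 0.664, 3.18, 2.28, 1.21 and 4.14 TPM, while H2-Ab1 had 41.7 ± 8.79.

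Eosinophil granule genes were the most uneven of the lineage lists, with a CV of 92.4% for their sum. The 8 genes summed to 96.3, 362, 206, 32.0 and 46.9 TPM in replicates 1 to 5. Prg2, the eosinophil major basic protein, had 71.3, 304, 168, 17.5 and 33.4 TPM, Prg3 had 23.4, 51.5, 34.2, 13.1 and 10.1, and Epx, eosinophil peroxidase, had 0.714, 3.43, 2.18, 0.461 and 0.624. All 3 were highest in replicate 2, with replicate 3 second for each of them and replicates 4 and 5 at the bottom. The other 5 genes of the list had means under 1 TPM, including the interleukin 5 receptor gene Il5ra.

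The 10 basophil and mast cell genes summed to 218 to 378 TPM, with 7 of them at means of at least 1. Mcpt8, a basophil protease, had 213, 229, 168, 153 and 183 TPM, Cpa3, carboxypeptidase A, had 38.5, 55.2, 39.2, 15.1 and 42.8, and Hdc, which makes histamine, had 82.8, 72.0, 67.1, 45.2 and 65.5. Fcer1a (5.03 ± 3.08) and Ms4a2 (2.06 ± 1.13), chains of the IgE receptor, were low, and Mcpt4 had no read. Replicate 2 was the highest sample for 6 of the 7 and replicate 4 the lowest for 4, beside 19.1% and 35.0% of all genes, so that the second count was not far from the background. Gata2 (3.72, 4.19, 4.37, 1.24 and 3.05 TPM) and Gata1 (2.81, 4.40, 3.98, 0.915 and 1.83), factors of the basophil, mast cell, eosinophil, erythroid and megakaryocyte branches, were likewise lowest in replicate 4.

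The 15 erythroid genes found summed to 51.4 to 129 TPM, of which 7 had means of at least 1. The 4 globin genes made up 56.1 ± 29.1 TPM of it, from 18.8 in replicate 1 to 86.0 in replicate 3, with Hba-a1 and Hba-a2 sharing 99.8% of their sequence, and Car2 had 24.6 ± 7.43. Slc4a1 (0.0313), Klf1 (0.449) and Alas2 (0.259), which define erythroid cells, had means under 1 TPM. The 11 megakaryocyte genes summed to 15.9 to 22.9 TPM, with 4 at means of at least 1, and Pf4 leading at 9.40 ± 3.94. Tubb1 had no read.

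The 15 B lineage genes summed to 114 to 159 TPM, nearly all from 4 genes. Ighm had 70.4 ± 10.8 TPM, Cd79b 47.2 ± 6.05, the surrogate light chain genes Vpreb1 19.1 ± 3.69 and Igll1 3.06 ± 1.21, whereas Vpreb2 had no read and Pax5 (0.00369), Ebf1 (0.00665), Rag1 (0.00590) and Cd79a (0.117) had means near 0. The 16 T and NK genes summed to 3.72 to 7.27 TPM, and only Thy1 had a mean of at least 1 (1.39 ± 1.53). The part that these cell types take in the results was not tested.

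**Figure D4:**
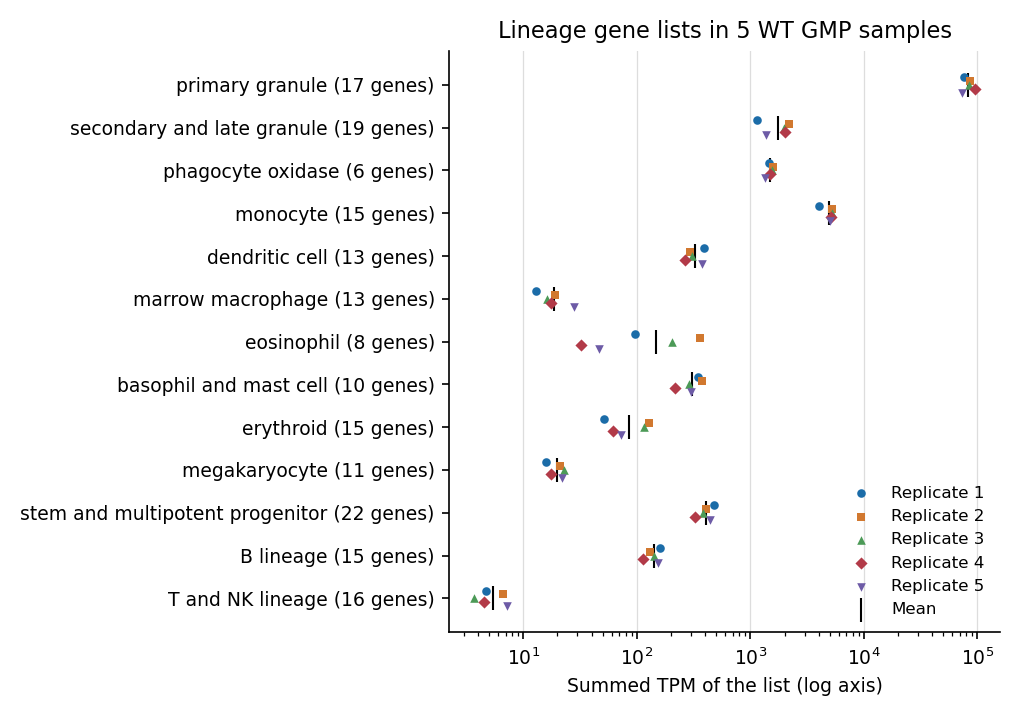
Summed TPM (horizontal axis, log scale) of 13 lineage gene lists in the 5 WT GMP samples, with 1 symbol per replicate, a vertical tick at the mean and the number of genes found on each list in parentheses. The primary granule list stands at 72611 to 94667 TPM, the T and NK list at 3.72 to 7.27, and the eosinophil list is the widest, from 32.0 TPM in replicate 4 to 362 in replicate 2.

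Stem and multipotent progenitor genes summed to 475, 405, 382, 327 and 446 TPM. The list was led by Lmo2 (246, 215, 199, 175 and 229) and Cd34, and 14 of its 22 genes had means of at least 1 TPM, among them Hoxa7 (18.2 ± 3.26), Hoxa9, Ly6a, Meis1 (4.33 ± 0.775), Pdzk1ip1 (3.59 ± 0.992) and Gata2. Hlf (1.11 ± 0.302), Mecom (0.561 ± 0.206), Procr (0.975 ± 0.497), Hoxb5 (0.121 ± 0.0610) and Fgd5 (0.00552), which mark stem cells, were at or near 1 TPM or below. Replicate 4 was the lowest sample for 10 of the 14 members with a mean of at least 1 TPM, beside 35.0% of all 10280 genes with such a mean. Replicate 4 was the highest sample for 9 of 16 primary granule genes, beside 11.9% of all genes. The order of the samples by granule sum (4, 2, 3, 1, 5) was thus nearly the reverse of their order by progenitor sum (1, 5, 2, 3, 4), but values in TPM compete for 1 total, and 5 samples are too few for a correlation.

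Most genes of the cell cycle were detected throughout. Of the 34 genes, 31 reached 1 TPM in all 5 samples. Among replication genes, Tyms had 275 ± 18.2 TPM, Pcna 259 ± 19.7, Rrm2 131 ± 12.6, and the 6 Mcm helicase genes ran from 21.0 ± 1.55 (Mcm4) to 109.8 ± 10.02 (Mcm6). Among mitotic genes, Birc5 had 337 ± 23.5, Cdc20 114 ± 7.71, Ccnb1 88.3 ± 6.20 and Top2a 44.2 ± 3.88, and Mki67, a transcript of great length, had 4.84 ± 0.476 from 1062 reads. Replicate 1 was the highest sample for 15 of the 31 and replicate 4 the lowest for 14, beside 39.7% and 35.0% of all genes.

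Cyclin and kinase genes were led by Cdk4 (499.8 ± 33.9 TPM), Cdk1 (299 ± 16.5) and Ccnd2 (277 ± 50.9), the D-type cyclin that was above Ccnd3 (68.5 ± 2.29) and Ccnd1 (4.98 ± 1.93) in all samples. Cell cycle inhibitors differed from each other. Cdkn1a, which encodes p21, had 123, 98.5, 60.9, 96.2 and 100.1 TPM, Cdkn2d had 26.5 ± 2.40 and Cdkn2c 11.3 ± 1.56, while the inhibitors associated with quiescent stem cells, Cdkn1b (0.343 ± 0.0837) and Cdkn1c (0.470 ± 0.201), were under 1 TPM and Cdkn2a had no read.

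The study asks which carbon sources progenitors need, so the genes by which carbon enters the mitochondrion are given in these WT cells. The mitochondrial pyruvate carrier is made of MPC1 and MPC2. Mpc1 had 466, 558, 491, 521 and 543 TPM (516 ± 37.6), and Mpc2 had 71.3, 151, 102, 128 and 88.6 TPM (108 ± 31.8), a ratio of 4.77 between the means. Mpc2 was below Mpc1 in every sample and was the more variable, with a CV of 29.3% against 7.28%. The pyruvate dehydrogenase subunit genes Pdhb (154 ± 10.3), Pdha1 (29.7 ± 2.72) and Dlat (13.8 ± 3.06) were present, and Pcx, pyruvate carboxylase, was at 0.547 ± 0.117.

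For the other carbon sources, Gls2, the liver-type glutaminase gene, had 0.280 ± 0.461 TPM. The glutamine transporter gene Slc1a5 had 39.0 ± 4.11 and Glud1 24.8 ± 2.19. The carnitine palmitoyltransferase genes of long-chain fatty acid import, Cpt1a and Cpt2, had 4.74 ± 0.371 and 7.25 ± 0.878, and the carnitine carrier gene Slc25a20 15.2 ± 1.83. For lactate, Ldha had 1584 ± 91.2 TPM, and the export carrier gene Slc16a3 had 2.90 ± 0.402 against 14.3 ± 1.12 for Slc16a1. No level is given for Ldhb, because most of its reads sit on transcripts that could not be assigned to a gene here.

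Glycolysis genes summed to 9727 ± 470.4 TPM, with Tpi1 understated for the same reason. Gapdh led, followed by Eno1 (1023 ± 107), Aldoa (912 ± 41.7), Pkm (719.8 ± 28.4), Pgam1 (684 ± 31.5) and Gpi1 (477 ± 18.5). Among hexokinases, Hk3 (66.5 ± 6.59) was above Hk1 (20.5 ± 1.90) and Hk2 (9.79 ± 1.97), and the glucose transporter genes Slc2a1 (4.13 ± 0.394) and Slc2a3 (1.55 ± 0.534) were low. All 11 tricarboxylic acid cycle genes were detected in all samples, from Mdh2 (629 ± 26.6) to Ogdh (29.8 ± 2.43), and they summed to 2127 ± 151 TPM.

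The spread between samples was small for most genes. Over the 4839 genes with a mean of at least 10 TPM, the median CV was 10.9%, against 3.02% from Poisson counting of their mean reads, and 88.3% of them had a CV under 20%. The median was lower for more abundant genes, at 20.1% for 1 to 10 TPM and 6.02% at 1000 TPM and above. The biological coefficient of variation from edgeR was 14.2% over 11426 genes. Samples correlated with each other at Pearson's r of 0.977 to 0.987 over log2(TPM + 1), across genes, which are not independent replicates. No pair was a duplicate library, since chi-square per gene lay between 9.48 and 30.3, far above sampling noise.

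Samples stood apart for particular genes. By Dixon's ratio, 1 sample lay apart from the other 4 in 234 of the 4839 genes, or 4.84%, which is close to the 1 in 20 that chance gives. The share was uneven among samples, at 99 genes for replicate 1, 88 of them high, and 52, 32, 31 and 20 for replicates 4, 5, 2 and 3. Of all 10280 genes with a mean of at least 1 TPM, 39.7% were highest in replicate 1. The shares for replicates 2 to 5 were 19.1%, 6.86%, 11.9% and 22.5%.

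The 12 protein-coding genes with the highest CV fell into a few sets. The first was 6 predicted genes that were high in replicate 2 alone, such as Gm10800 with 13.6, 915, 4.79, 41.3 and 6.21 TPM and Gm10801 with 9.98, 463, 2.86, 16.1 and 1.49, along with Gm10718, Gm10719, Gm10721 and Gm11168, and the last 4 share 95.3% to 97.2% of their sequence with one another. The second set was high in replicate 4, namely Lrg1, a secreted leucine-rich glycoprotein (4.76, 3.75, 5.47, 31.5 and 5.02), Wfdc21, a whey acidic protein gene (50.4, 87.6, 89.4, 423 and 60.3), and Ifitm1, an interferon-induced membrane protein (468, 286, 265, 1399.7 and 450.4). The heat shock genes Hspa1a (1.19, 5.00, 14.3, 31.8 and 12.9) and Hspa1b (1.52, 8.45, 17.2, 40.7 and 18.3) were also highest there and lowest in replicate 1, and share 99.2% of their sequence. Prg2, described above, completed the 12.

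Immediate-early genes, which respond quickly to handling or stimulation, were uneven among the same samples. Fos had 17.9, 30.9, 21.4, 40.9 and 22.99 TPM, Dusp1 had 11.7, 29.8, 20.3, 36.2 and 15.0, and Jun had 11.02, 18.8, 16.5, 25.8 and 16.5. Of the 9 immediate-early and heat shock genes with a mean of at least 1 TPM, replicate 1 was lowest for all 9, beside 11.8% of all genes, and replicate 4 was highest for 7, beside 11.9%. The sums over the whole list were 135, 217, 191, 299.5 and 197 TPM. Replicate 4 was thus high in primary granule genes, in the acute-phase genes Lrg1 and Lcn2 and in immediate-early genes at once, and whether these share a source was not tested.

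The 12 protein-coding genes with the lowest CV included genes of the ribosome, respiratory chain and proteasome. Ndufa12, a subunit of respiratory complex I, had a CV of 0.757% around 1183 TPM, and its fellow subunit genes Ndufb7 and Ndufb3 had 1.30% and 1.51%. Rps6 (2839 ± 37.1 TPM), Rpl35a (2231 ± 36.9) and the proteasome gene Psmb2 (1024 ± 16.4) followed, along with Gga2, Ddb1, S100a13, BC031181, Tmem258 and Prps1l3, the last at 1.73%. These were the 12 lowest values of the protein-coding genes above 10 TPM and 200 mean reads. Most of them lie below the CV that Poisson counting gives, such as Gga2 at 0.852% against 3.67%. In CPM the CVs were higher, at 6.23% for Ndufa12, 4.79% for Ndufb7 and 4.09% for Ndufb3. Those of Rpl35a, Psmb2 and Rps6 were 6.81%, 3.38% and 2.39%. The low values therefore depend on the scaling.

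**Figure D5:**
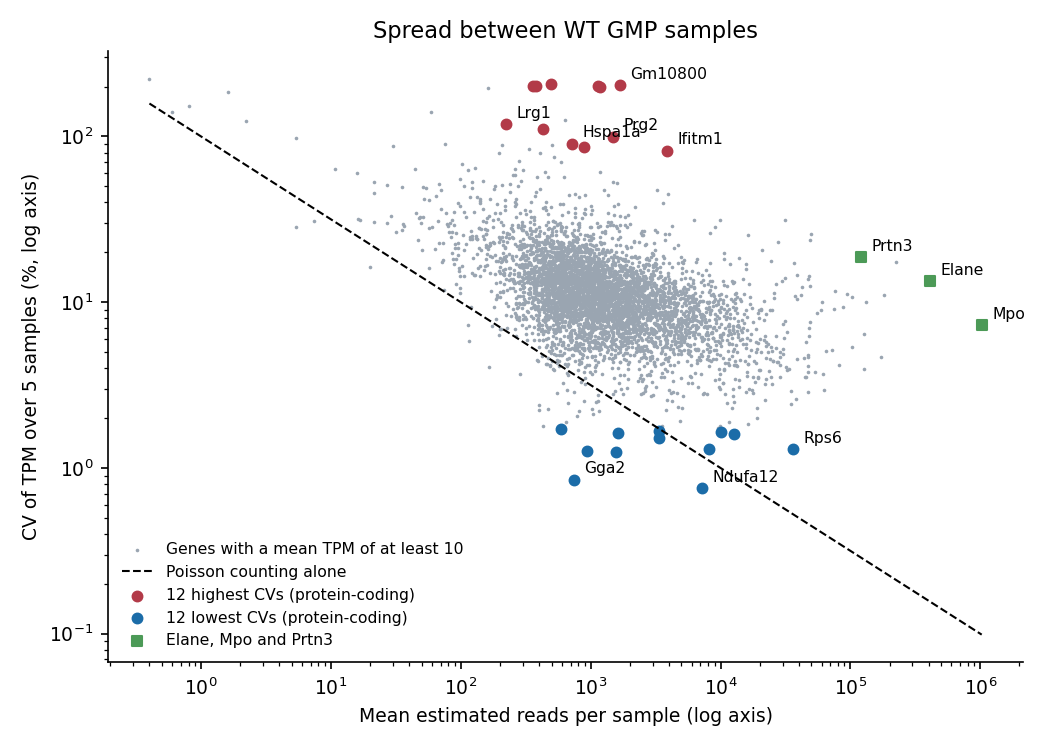
CV of TPM over the 5 WT GMP samples (vertical axis, %, log scale) against the mean number of estimated reads (horizontal axis, log scale) for the 4839 genes with a mean of at least 10 TPM, in grey. The dashed line is the CV that Poisson counting alone would give, red and blue points are the 12 highest and 12 lowest CVs among protein-coding genes with at least 200 mean reads, and green squares mark Mpo, Elane and Prtn3, whose CVs of 7.28%, 13.4% and 18.7% lie far above that line at 120666 reads or more.

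The libraries were male, as labelled. The Y-linked genes Eif2s3y (23.3 ± 3.18 TPM), Ddx3y (2.75 ± 0.290), Uty (1.79 ± 0.429) and Kdm5d (1.30 ± 0.341) were detected in each sample, and Xist, expressed from the inactive X chromosome of females, had reads in replicate 5 alone, at 0.00593 TPM. Nnt, which is partly deleted in C57BL/6J mice, had 6.42, 6.64, 7.22, 5.78 and 5.14 TPM.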

How the data were processed

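Bulk RNA-seq of CD45.2+ GMPs was examined in the 5 WT samples of the series, grouped by their labels. The knockout samples were not used, and no comparison between groups was made. In the study's methods, RNA was isolated with the NucleoSpin RNA XS kit, Novogene prepared SMARTseq V4 libraries and sequenced both ends for 150 bases on a NovaSeq, and transcripts of Gencode's M27 annotation were quantified with Salmon, given as version 1.5.1 in the submitters' processing notes.

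The authors deposited, for each sample and transcript, Salmon's estimated counts of reads, fractional where a read fits several transcripts and without any scaling. The authors also deposited TPM, which Salmon divides by length and scales to 1000000 per sample, and an effective length per transcript, another deposited column, from which short transcripts (effective length under 100 bases) were identified. The series further holds a table of the authors' DESeq2 comparison. Its signal column, the authors' mean of normalized counts over both groups, served here only to find genes whose reads sit on transcripts that could not be assigned, and its fold changes and p-values were not used.

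Reference annotation at hand was Gencode M21 on GRCm38, so transcripts were matched by identifier, and 137161 of 140789 (97.4%) matched. The 3628 others held 0.317% to 0.355% of TPM and were left out. TPM and reads were summed to 51717 genes, and 30 genes whose level the authors' mean exceeded by more than 3 times, Tpi1 and Ldhb among those on the lists, were marked as incomplete. Coordinates are those of M21 on GRCm38 and none was converted. Of 319 list genes, 318 were found (Ahsp was not), and where a symbol had 2 identifiers (Aldoa and Nnt) the protein-coding one with the higher TPM was used. Overlapping genes were taken as Salmon divided them. No column of per-sample values of the WT samples was left out for want of a sample.

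The genes named are the 20 with the highest mean TPM, the GMP markers, genes of 23 lists by role, and the 12 protein-coding genes with the highest and the 12 with the lowest CV among those with at least 10 TPM and 200 reads on average. Neighbours of the leading genes were named for their position. Some genes that this rule takes in are not reported here. The samples, markers and lists were chosen with earlier results of these data known. Values are means ± SD of 5 samples. CVs were computed on TPM, the common dispersion with edgeR 4.0.16 (R 4.3.3) from rounded reads with an intercept only, sequence copies with BLAST 2.17.0 at 95% identity over at least 50% of the query, and samples apart with Dixon's ratio above 0.710. The spread script was tested on simulated data. No test between groups was run. A count of 3 reads, 0.152 to 0.212 CPM, was taken as the floor. This floor concerns counting error alone, since the amplified cDNA carried no molecular identifiers. The labels call the samples biological replicates.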

Additional observations from a re-analysis of the deposited data

Results flagged for a closer look

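Of 250 values examined, namely the 225 genes named, the list sums and the summaries, 28 had 1 of the 5 samples apart from the other 4 by Dixon's ratio, or 11.2%, where chance flags about 1 in 20 groups. That share is not to be read against chance, since 9 of the 28 are among the 12 genes named for their high CV and 5 others were listed at 0 in 4 samples, where the ratio is 1 by construction.

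Replicate 4 stood high for Prtn3 (12228 TPM, others 8201 to 8707), Cebpb (68.0, others 38.5 to 43.5), Rrm2 (152, others 121 to 129), Lcn2 (208, others 85.6 to 118), Lrg1 (31.5, others 3.75 to 5.47), Wfdc21 (423, others 50.4 to 89.4), Ifitm1 (1399.7, others 265 to 468), Cd14 (11.8, others 4.56 to 6.61) and the glycolysis list (10532, others 9357 to 9668). Gls2 (1.10 TPM, others 0 to 0.169) and Fgd5 (0.0276, others at 0) were also highest there, on few reads. Lrg1 and Cd14 rested on at least 99 and 127 reads in every sample.

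Replicate 2 stood high for the predicted genes Gm10800 (915 TPM), Gm10719 (604), Gm10718 (584), Gm10801 (463), Gm11168 (199) and Gm10721 (191), which had 41.3 TPM or less in every other sample. It was also high for Alas2 (0.921, others 0 to 0.173) and Mmp25 (0.0142, others at 0) and low for F13a1 (58.9, others 68.5 to 71.7).

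Replicate 1 stood low for Ly6c2 (3553 TPM, others 4588 to 4924) and with it for the monocyte list (4003, others 5047 to 5289), and Batf3 was listed above 0 there alone (0.0850). Replicate 5 stood high for C1qb (6.76 TPM, others 2.88 to 3.50) and Kdm5d (1.90, others 1.08 to 1.25) and low for Ppia (9855, others 10686 to 10842). Pax5 (0.0185) and Xist (0.00593) were listed above 0 in replicate 5 alone. The causes of these differences were not tested.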

How the results depend on the processing

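Of 58 values under alternative settings, 45 were called the same as the reported value, by rules that differed between results. Gene counts were judged by a fixed ratio, a loose rule that is not the spread between samples. The share of the 20 leading genes and the granule sum were judged by the SD between samples. The median CV was judged by its leave-one-out error (1.55) and r by its SD over pairs (0.00326). Detection in all 5 samples (9213 genes at 1 TPM) gave 5805 genes at 5 TPM and 14581 with any read. In CPM, which are not divided by length, 292.4 genes held 50% of the library in place of 152, the primary granule list came to 111247 in place of 82802, and the 20 leading genes shared 13 with those by TPM, with Mpo first. The median CV of 10.9% became 7.82% with TMM factors, 7.79% with DESeq2 size factors, 14.5% at a mean of at least 1 TPM, 8.52% at 100 TPM and 56.1% with no minimum. The median r of 0.981 became 0.962 with a pseudocount of 0.1 and 0.988 with no minimum. Leaving out each sample in turn gave 9256 to 9383 genes detected, 19.5% to 20.4% for the top 20, 147.5 to 155.75 genes for 50% of TPM, 79836 to 85350 TPM for the granule list, 9.27% to 11.4% for the median CV, which was lowest without replicate 1, and 0.978 to 0.983 for r. The alternative without short transcripts, chosen after seeing the data, gave a median r of 0.986 and left the other 5 values the same by these rules. No paired analysis was possible because a single group is described. Depth limits genes under 1 TPM, and the length gradient limits comparisons of level between genes.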

Other observations

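The share of a gene's TPM that fell on its leading transcript differed between genes of the GMP program. Elane had 1 annotated transcript, and Ctsg-201 held 98.9% of Ctsg TPM and Mpo-203 85.5% of Mpo TPM (84.8% to 86.2% over the 5 samples), whereas Prtn3-201 held 50.3% of Prtn3 TPM (48.3% to 54.3%). Among regulators, Spi1-201 held 74.6% of Spi1 (71.3% to 79.7%) and Cebpa-201 88.0% of Cebpa (75.8% to 96.2%). Wider ranges between samples were seen for Gfi1-203 (31.0% to 79.9% of Gfi1), Kit-204 (27.1% to 58.3% of Kit) and Mpc2-201 (64.3% to 99.1% of Mpc2). These shares are Salmon's division of shared reads between overlapping transcripts, and no error of that division was at hand.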
